A study of Mus musculus with 8 samples.

Results

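The proton pump of the lysosome and the proteins embedded in the lysosomal membrane were examined in chronic stroke infarcts of aged mice, as 35 genes taken by symbol from the 46078 genes that the count tables list. Of these, 20 encode subunits and accessory proteins of the vacuolar proton pump (V-ATPase) and 15 encode lysosomal membrane glycoproteins, ion channels, exchangers and transporters. The tissue was the infarct of 18-month-old wild-type C57BL/6J mice, an inbred laboratory strain, taken 7 weeks after DH stroke, a model that combines occlusion of the distal middle cerebral artery with a period of low oxygen. Beginning 1 week after stroke, the mice were injected under the skin 3 times per week for 6 weeks with either sterile PBS (vehicle, n = 4) or 2-hydroxypropyl-β-cyclodextrin at 4 g/kg (HPβCD, spelled HPBCD in the labels, n = 4). HPβCD is a cyclic oligosaccharide whose cavity can hold cholesterol and other lipids. All animals had a stroke, the study's methods describe males, and no group without stroke or without injections entered the comparison. Infarcts were found by eye and cut out by hand, which left the amount of adjoining brain in each piece unfixed.

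The lysosome is the acidic, degradative organelle of the cell. Its acidity comes from the V-ATPase, a rotary enzyme in which the cytosolic V1 sector hydrolyzes ATP and turns a ring in the membrane-bound V0 sector that carries protons across the membrane. Several subunits exist as isoforms encoded by separate genes that differ between cell types. Around the pump, the heavily glycosylated LAMP proteins line the membrane, chloride and cation channels balance the charge the pump moves, and transporters export the products of digestion. Macrophages that clear lipid-rich debris from injured tissue digest it in this compartment and can become foamy. The question the comparison addressed was whether transcripts of this machinery differed in amount between infarcts of HPβCD-treated and vehicle-treated mice.

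Many lysosomal genes carry an E-box with the core letters CACGTG near their start, the center of the CLEAR element that factors of the MiT/TFE family such as TFEB bind. Because these letters are the same on both strands, 1 search covers both. RefSeq promoters on GRCm38.p6, reaching from 250 bases before the start to 50 bases after it, were available for 28 of the 35 genes, and 8 of these 28 (28.6%) held at least 1 CACGTG. Among all 27025 genes with a promoter the share was 8.09%, and among all 32851 promoters of this length it was 7.15%. The 8 genes were Lamp1 with 4 copies, Mcoln1, Clcn7, Cln3 and Atp6v0b with 2 each, and Atp6v0d1, Atp6v0e and Atp6v1a with 1 each. Both copies of Cln3 lay in the second of its promoters (chr7:126583187-126583486), which lies within the gene. The promoter at the annotated start of Cln3 (chr7:126585768-126586067) held 0. A match to these letters describes the sequence only, and factor binding was not measured.

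Windows of 80 bases from 5 of these promoters, 5′ to 3′ with every CACGTG in capitals, show how the copies are spaced. Those of Lamp1, Mcoln1 and Clcn7 end at or directly before the first base of the gene in the GENCODE M21 annotation, that of Atp6v0b lies just upstream of its gene, and that of Atp6v1a lies in a stretch without exons inside the gene's longest annotated span.
Lamp1, chr8:13159081-13159160, plus strand: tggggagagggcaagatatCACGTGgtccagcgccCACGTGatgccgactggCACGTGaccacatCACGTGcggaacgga
Mcoln1, chr8:3500377-3500456, plus strand: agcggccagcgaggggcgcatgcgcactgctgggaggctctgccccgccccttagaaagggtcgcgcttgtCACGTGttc
Clcn7, chr17:25133311-25133390, plus strand: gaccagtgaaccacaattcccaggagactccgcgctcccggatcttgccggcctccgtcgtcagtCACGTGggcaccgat
Atp6v0b, chr4:117887334-117887413, minus strand: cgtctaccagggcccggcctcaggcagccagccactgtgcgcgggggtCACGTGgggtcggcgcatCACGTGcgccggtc
Atp6v1a, chr16:44139350-44139429, minus strand: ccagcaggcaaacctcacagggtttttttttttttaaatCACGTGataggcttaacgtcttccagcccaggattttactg
The copies of Lamp1 begin 61, 45, 28 and 15 bases before the RefSeq start, and those of Atp6v0b begin 36 and 18 bases before it. In Mcoln1 the copies begin 71 and 45 bases before the start and in Atp6v1a the single copy begins 131 bases before it. The window of Mcoln1 holds only the first of its copies. That of Clcn7 holds the copy that begins 15 bases before the start, and its other copy lies after the start, outside the window.

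The 8 libraries held between 16.6 M and 32.9 M gene counts, and the library with the most was vehicle replicate 2. All 35 genes passed the filter on low counts, and the lowest count of any of them was 17. Vehicle replicates 1 and 3 stood apart from the others by their neuron transcripts. The summed level of 12 neuron markers was 1505 CPM (counts per M gene counts, with the library total multiplied by its TMM factor) in vehicle replicate 1 and 9138 CPM in vehicle replicate 3, against 71.6 and 34.0 CPM in vehicle replicates 2 and 4 and 22.2 to 128 CPM in the HPβCD libraries. Values without vehicle replicates 1 and 3 are therefore given beside each of the 35 genes whose log2 fold change they moved by over 1.5 times or whose call they ended. Since this is bulk tissue, fewer cells of a type and less RNA per cell cannot be told apart.

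Of the 35 genes, 27 had a positive log2 fold change in HPβCD relative to vehicle infarcts (26 when libraries were scaled by their totals alone), and 3 rose past an adjusted p of 0.05 in edgeR's quasi-likelihood test. The 3 were Clcn7, Tpcn1 and Tcirg1, and no gene of the 35 fell past the threshold. The median log2 fold change was 0.42 over the 35 genes and -0.05 over all 14736 genes tested, of which 45.9% had a positive value. Over all genes, 1.95% were called in either direction (287) and 1.17% were called higher in HPβCD infarcts (173), so that 3 of 35 is to be read against these shares. At an unadjusted p under 0.05 stood 19 of the 35 genes and 4094 of all genes. DESeq2, the tool of the study, called 13 of the 35 genes higher and Atp6v1g2 lower, where it called 5.92% of all genes higher and 11.1% lower.

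**Figure D1:**
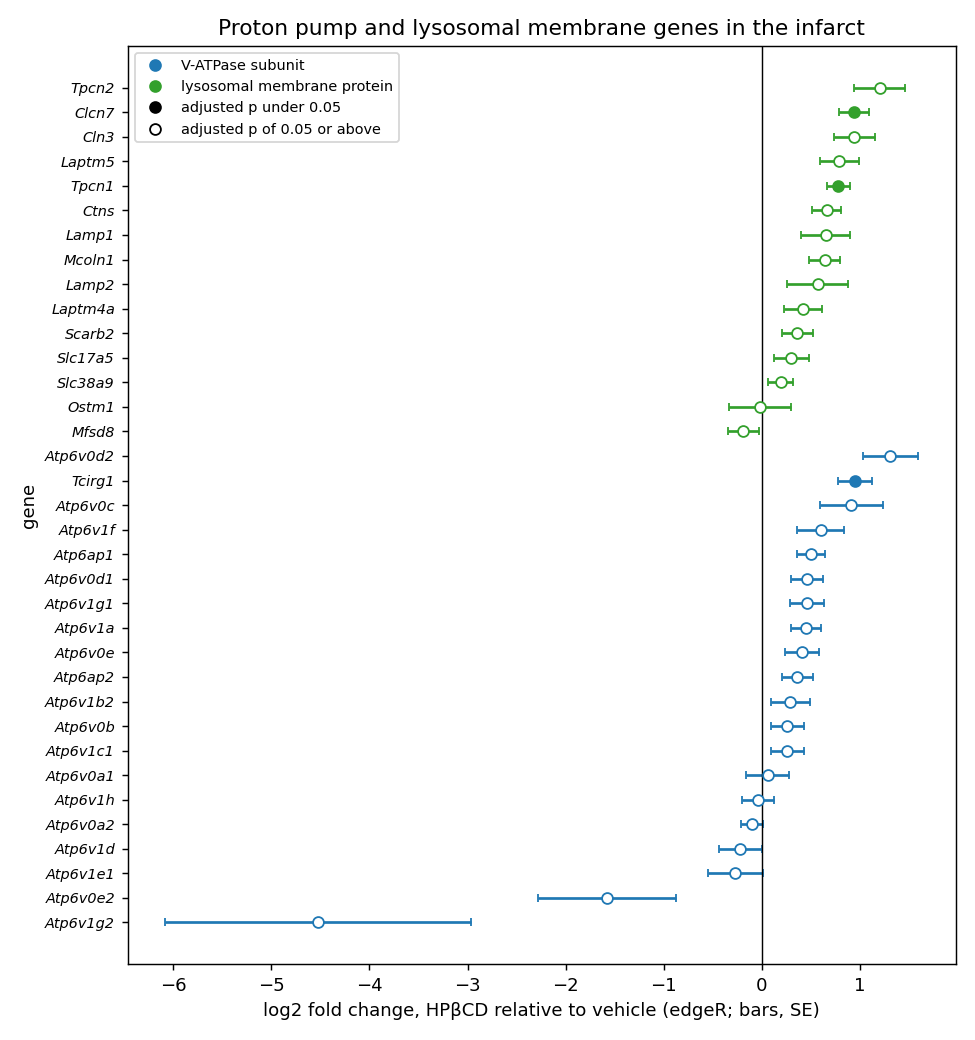
Log2 fold change (HPβCD relative to vehicle, n = 4 per group) of the 35 genes on the x axis, with SE as bars, sorted within the 2 classes on the y axis. Filled points mark Clcn7, Tpcn1 and Tcirg1, the genes with an adjusted p under 0.05; values run from -4.52 for Atp6v1g2 to 1.31 for Atp6v0d2, and 27 lie above 0 (26 with scaling by library totals alone).

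In both classes most genes had positive values. For the 20 V-ATPase genes the median was 0.32 on the log2 scale, with a range from -4.52 to 1.31, and 14 were above 0 and 1 called. The 15 lysosomal membrane proteins had a median of 0.64 and a range from -0.19 to 1.20, with 13 above 0 and 2 called. In 14 of the 35 genes, 6 of the V-ATPase and 8 membrane proteins, all 4 HPβCD libraries lay above all 4 vehicle libraries, and in none did all vehicle libraries lie above. Over all genes tested, 8.77% showed the first pattern and 8.03% the second. Without vehicle replicates 1 and 3, 32 of the 35 values were positive, the median was 0.36 for the V-ATPase (range -0.10 to 1.30) and 0.38 for the membrane proteins (range -0.35 to 0.95), and edgeR called none of the 35 (18 at an unadjusted p under 0.05) and 1.34% of all genes. The difference between the classes was not tested.

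In the membrane-bound V0 sector, 7 of 9 values were positive and 1 gene was called (4 by DESeq2). The subunit a isoforms anchor the pump in the membrane and steer it to different compartments. Tcirg1 (ENSMUSG00000001750, chr19:3896050-3907133, minus strand, GRCm38) encodes isoform a3, known from the acid-secreting membrane of osteoclasts and from macrophage lysosomes. Its level was 60.5, 75.1, 54.5 and 75.1 CPM in vehicle replicates 1 to 4 and 135.7, 148.3, 127.5 and 100.5 CPM in HPβCD replicates 1 to 4. The groups did not overlap, and the HPβCD library nearest to the vehicle libraries was replicate 4. Tcirg1 rose 1.93-fold (log2 fold change 0.95 ± 0.17 SE, adjusted p = 0.0483). Without vehicle replicates 1 and 3 Tcirg1 was at 0.78 ± 0.17 and was no longer called (adjusted p = 0.0632 in edgeR). Its isoform partner Atp6v0a1, abundant in neurons and their synaptic vesicles, was at 205.3, 190.8, 338.7 and 183.2 CPM in vehicle and 232.8, 276.6, 242.4 and 206.7 CPM in HPβCD replicates 1 to 4. The highest of these values was that of vehicle replicate 3, and the log2 fold change was 0.06 ± 0.22 (0.00 with scaling by library totals alone, 0.37 ± 0.15 without vehicle replicates 1 and 3). Atp6v0a2, the isoform of Golgi and endosomes, ranged from 91.3 to 113.6 CPM in vehicle and from 94.8 to 98.4 CPM in HPβCD libraries, with a log2 fold change of -0.10 ± 0.11.

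The d subunits couple the ring to the central stalk, and isoform d2 is known from osteoclasts, macrophages and dendritic cells. Atp6v0d2 was at 317.8, 605.6, 363.7 and 664.3 CPM in vehicle and 1279, 1110, 1472 and 967.6 CPM in HPβCD replicates 1 to 4. Every HPβCD library was above every vehicle library, and vehicle replicates 1 and 3 were the lowest of all. The log2 fold change of 1.31 ± 0.28 was the highest of the 35 genes, and its adjusted p of 0.0516 missed the threshold in edgeR, whereas DESeq2 gave 0.000481. Without vehicle replicates 1 and 3 the value was 0.94 ± 0.20. The broadly expressed Atp6v0d1 was at 212.7, 187.8, 294.2 and 224.2 CPM in vehicle and 334.8, 318.6, 327.0 and 287.4 CPM in HPβCD infarcts. The groups overlapped because vehicle replicate 3 exceeded HPβCD replicate 4, and the log2 fold change was 0.46 ± 0.16 (adjusted p = 0.113).

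Among the ring subunits, Atp6v0c (subunit c) had a log2 fold change of 0.91 ± 0.32 (adjusted p = 0.116) from 7.47, 5.68, 12.5 and 6.78 CPM in vehicle and 15.9, 18.8, 17.7 and 8.33 CPM in HPβCD replicates 1 to 4. HPβCD replicate 4 fell within the vehicle range. These levels are uncertain, as 9.24% of the 75-base stretches of its transcripts also occur in the annotated copies Atp6v0c-ps1 and Atp6v0c-ps2, and reads aligned to several places were not counted. Atp6v0b, which encodes a related ring subunit, ranged from 67.0 to 106.4 CPM in vehicle and from 83.6 to 115.6 CPM in HPβCD libraries (log2 fold change 0.26 ± 0.17, and 0.45 ± 0.16 without vehicle replicates 1 and 3).

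The small subunit e has a general and a brain-enriched form. Atp6v0e, the general form, was at 105.1, 115.2, 75.3 and 111.7 CPM in vehicle and 130.6, 122.7, 158.9 and 129.5 CPM in HPβCD replicates 1 to 4, without overlap and with a log2 fold change of 0.41 ± 0.17 (adjusted p = 0.149), or 0.27 ± 0.15 without vehicle replicates 1 and 3. Atp6v0e2, the brain-enriched form, was at 38.5, 12.6, 123.1 and 15.9 CPM in vehicle and 17.6, 14.7, 16.6 and 14.6 CPM in HPβCD replicates 1 to 4. Only vehicle replicates 1 and 3 were above all HPβCD libraries. The log2 fold change was -1.58 ± 0.70 (adjusted p = 0.191) over all libraries and 0.17 ± 0.18 without these 2 libraries.

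**Figure D2:**
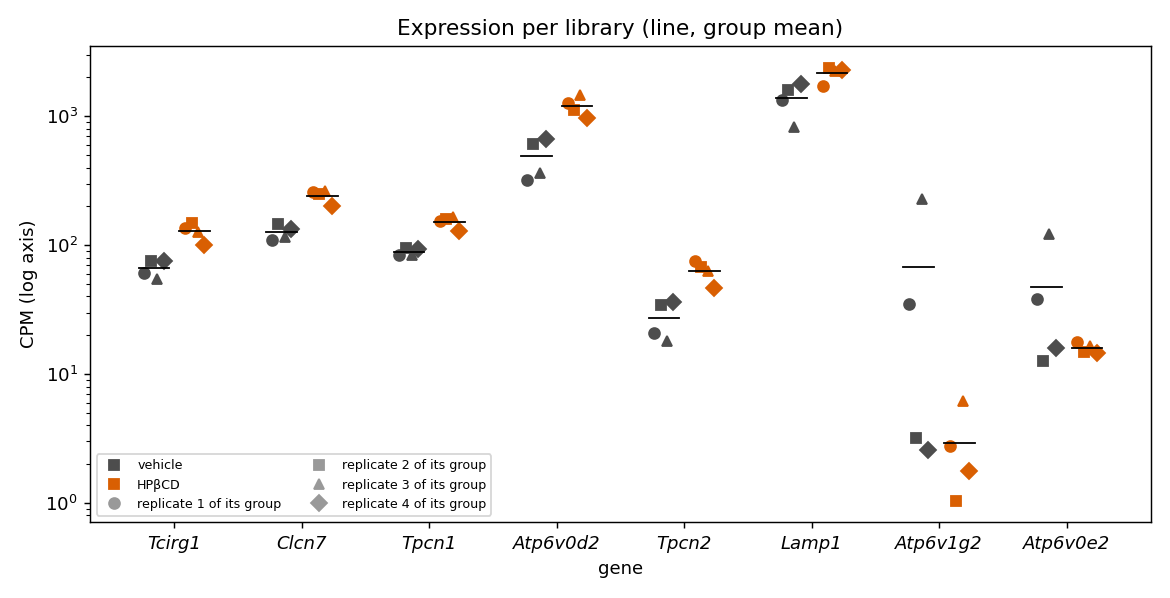
CPM (log axis) of 8 genes in each of the 8 libraries; gray points are vehicle, orange points HPβCD, the symbol gives the replicate number and the line the group mean. For Tcirg1, Clcn7, Tpcn1, Atp6v0d2 and Tpcn2 all HPβCD points lie above all vehicle points, whereas for Atp6v1g2 and Atp6v0e2 vehicle replicates 1 and 3 lie far above the other vehicle libraries.

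In the cytosolic V1 sector, which hydrolyzes ATP, edgeR called 0 of 9 genes (4 at an unadjusted p under 0.05, 2 called by DESeq2), and 5 of the 9 values were positive. Atp6v1a, the catalytic subunit, ranged from 516.7 to 710.0 CPM in vehicle and from 817.7 to 887.4 CPM in HPβCD libraries. Its groups did not overlap, and the log2 fold change was 0.45 ± 0.15 (adjusted p = 0.102). Atp6v1f, a rotor subunit, had a log2 fold change of 0.60 ± 0.24, the highest of the sector, with overlapping groups. The values of Atp6v1b2, the second nucleotide-binding subunit, and Atp6v1c1, of the joint between the sectors, were 0.29 ± 0.20 and 0.26 ± 0.17, the latter 0.40 ± 0.15 without vehicle replicates 1 and 3. Atp6v1h, the regulatory subunit, and the rotor subunit Atp6v1d had values of -0.04 ± 0.16 and -0.22 ± 0.22. Both turned positive without vehicle replicates 1 and 3, at 0.10 and 0.17.

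The peripheral stalk of V1 is built from subunits E and G, and a form of G had the lowest value of the 35 genes. Atp6v1e1 was at 58.4, 58.9, 128.7 and 52.6 CPM in vehicle and 56.6, 60.9, 65.4 and 64.0 CPM in HPβCD replicates 1 to 4. Vehicle replicate 3 alone stood out, and the log2 fold change of -0.27 ± 0.28 became 0.16 ± 0.13 without vehicle replicates 1 and 3. Atp6v1g1, the broadly expressed subunit G, was at 128.1, 174.8, 130.3 and 198.7 CPM in vehicle and 222.0, 199.1, 211.0 and 234.6 CPM in HPβCD replicates 1 to 4. The groups lay apart by a narrow margin, and the log2 fold change was 0.46 ± 0.17 (adjusted p = 0.130), or 0.23 ± 0.14 without vehicle replicates 1 and 3. Atp6v1g2, the neuronal form of subunit G, was at 35.1, 3.19, 229.8 and 2.58 CPM in vehicle and 2.76, 1.04, 6.17 and 1.78 CPM in HPβCD replicates 1 to 4. The 2 high values were those of vehicle replicates 1 and 3, and the other vehicle libraries lay within the HPβCD range. The log2 fold change was -4.52 ± 1.56 (adjusted p = 0.116 in edgeR, 0.00807 in DESeq2), and it was 0.04 ± 0.61 without these libraries.

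Neuron markers moved with these isoforms. All 10 neuron markers tested had negative log2 fold changes with a median of -5.85, and 0 were called by edgeR (10 at an unadjusted p under 0.05). DESeq2 filters differently, tested 11 of the 12 and called 11. Snap25, a synaptic protein, was at 335.1, 11.1, 3023 and 2.74 CPM in vehicle replicates 1 to 4 and at 0.919 to 29.9 CPM in HPβCD libraries, and Gad2 and Nefm were at 0 in at least 1 library. Vehicle replicate 3 was the highest vehicle library in 13 of the 20 V-ATPase genes and the lowest in 12 of the 15 membrane protein genes, against 40.9% and 39.2% of all genes tested. The part of neuronal tissue in the V-ATPase values was not tested beyond the comparison without vehicle replicates 1 and 3, in which 19 of the 20 V-ATPase values were positive.

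**Figure D3:**
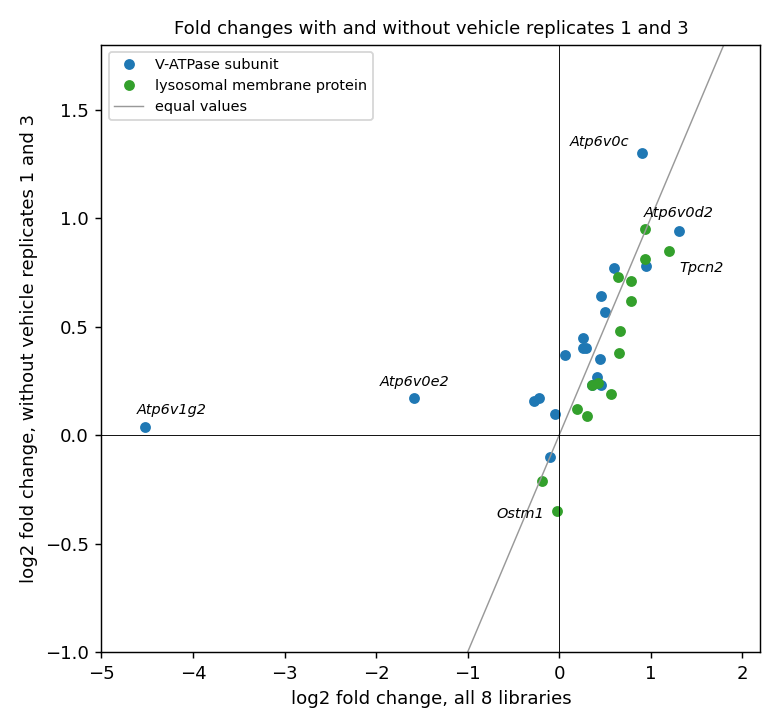
Log2 fold change of each of the 35 genes with all 8 libraries (x axis) and without vehicle replicates 1 and 3 (y axis); the line marks equal values. Atp6v1g2 and Atp6v0e2 move from -4.52 and -1.58 to 0.04 and 0.17, and 32 of the 35 values lie above 0 on the y axis.

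The accessory proteins assist the assembly of the pump. Atp6ap1 ranged from 186.6 to 229.0 CPM in vehicle and from 233.1 to 305.0 CPM in HPβCD libraries, without overlap (log2 fold change 0.50 ± 0.14, adjusted p = 0.0802 in edgeR and 0.00966 in DESeq2). Atp6ap2, also known as the prorenin receptor, ranged from 557.7 to 777.5 CPM and from 776.1 to 850.5 CPM, with a value of 0.36 ± 0.16 (adjusted p = 0.178), or 0.23 ± 0.16 without vehicle replicates 1 and 3.

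Ratios of isoform pairs within a library do not depend on how libraries are scaled, and 4 such ratios were each tested with an exact permutation test (two-sided), for which 0.0286 is the smallest p that 4 against 4 allows. The log2 ratio of Tcirg1 to Atp6v0a1 was -1.76, -1.35, -2.63 and -1.29 in vehicle and -0.78, -0.90, -0.93 and -1.04 in HPβCD replicates 1 to 4. All HPβCD ratios were above all vehicle ratios, with a difference of 0.85 (exact p = 0.0286, 0.0571 after Benjamini-Hochberg adjustment over the 4 ratios), which was 0.40 without vehicle replicates 1 and 3. The log2 ratio of Atp6v0d2 to Atp6v0d1 was 0.58, 1.69, 0.31 and 1.57 in vehicle and 1.93, 1.8, 2.17 and 1.75 in HPβCD replicates 1 to 4. These groups also lay apart, with a difference of 0.88 (exact p = 0.0286, adjusted 0.0571), and the difference was 0.29 without vehicle replicates 1 and 3. Per length of exon, Atp6v0d2 stood at 0.816 to 2.13 times the level of Atp6v0d1 in vehicle and at 2.22 to 2.97 times in HPβCD infarcts.

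The ratios that involve the brain-enriched forms overlapped between the groups. Atp6v0e2 to Atp6v0e had a mean log2 ratio of -1.68 ± 1.76 (SD, n = 4) in vehicle and -3.09 ± 0.16 in HPβCD infarcts (exact p = 0.143, adjusted 0.143). The highest vehicle ratio was 0.71 in replicate 3, and the lowest, -3.19 in replicate 2, lay among the HPβCD values. Atp6v1g2 to Atp6v1g1 had a mean of -3.27 ± 3.36 in vehicle and -6.49 ± 1.06 in HPβCD infarcts (exact p = 0.114, adjusted 0.143). Without vehicle replicates 1 and 3 the differences were -0.09 and -0.48, against -1.40 and -3.22 with all libraries.

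**Figure D4:**
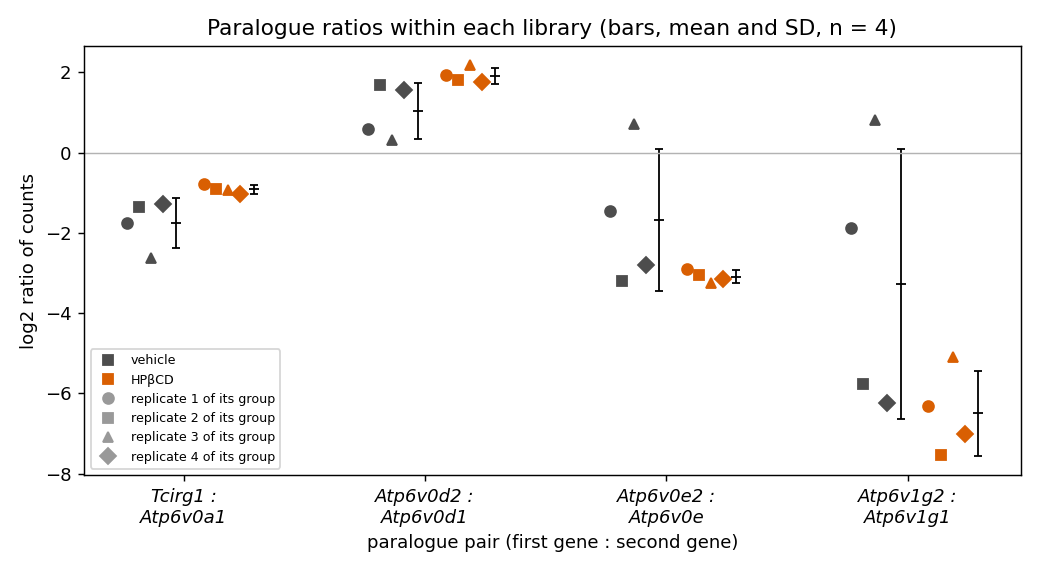
Log2 ratio of counts of 4 isoform pairs in each library (gray, vehicle; orange, HPβCD; symbols give the replicate number; bars, mean and SD of 4 libraries). The groups lie apart for Tcirg1 to Atp6v0a1 and for Atp6v0d2 to Atp6v0d1 (exact p = 0.0286 each, adjusted 0.0571), and overlap for the other 2 pairs.

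The channels and exchangers held 2 of the 3 called genes. Clcn7 (ENSMUSG00000036636, chr17:25133391-25162104, plus strand) encodes the chloride-proton exchanger of the lysosome, and its promoter is among those shown above. Its level was 109.9, 146.4, 116.1 and 132.8 CPM in vehicle and 259.8, 247.2, 264.2 and 199.9 CPM in HPβCD replicates 1 to 4. The groups were well separated, and Clcn7 rose 1.92-fold (log2 fold change 0.94 ± 0.15, adjusted p = 0.0427). Without vehicle replicates 1 and 3 Clcn7 was at 0.81 ± 0.16 and was no longer called (adjusted p = 0.0502 in edgeR). Ostm1 encodes the partner protein that stabilizes this exchanger. It was at 88.9, 123.3, 48.1 and 114.5 CPM in vehicle and 71.3, 86.5, 73.3 and 138.6 CPM in HPβCD replicates 1 to 4. The groups overlapped throughout, and the log2 fold change of -0.02 ± 0.32 changed sign with the processing and was -0.35 ± 0.26 without vehicle replicates 1 and 3.

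Tpcn1 and Tpcn2 encode cation channels of endosomes and lysosomes that respond to NAADP and phosphoinositides. Tpcn1 (ENSMUSG00000032741, chr5:120534153-120588673, minus strand) was at 84.2, 94.5, 83.7 and 92.8 CPM in vehicle and 153.7, 160.3, 164.3 and 129.7 CPM in HPβCD replicates 1 to 4. Relative to their mean, its vehicle libraries were the closest together of the 3 called genes, and it rose 1.71-fold (log2 fold change 0.78 ± 0.12, adjusted p = 0.0427). Without vehicle replicates 1 and 3 Tpcn1 was at 0.71 ± 0.15 and was no longer called (adjusted p = 0.0521 in edgeR). Tpcn2 was at 20.99, 34.6, 18.0 and 36.1 CPM in vehicle and 75.7, 67.7, 63.0 and 46.4 CPM in HPβCD replicates 1 to 4. All HPβCD libraries were higher, and the log2 fold change of 1.20 ± 0.26 had an adjusted p of 0.0550 in edgeR and 0.00145 in DESeq2. Mcoln1, the cation channel TRPML1 that releases lysosomal calcium, ranged from 22.9 to 34.9 CPM in vehicle and from 39.1 to 48.3 CPM in HPβCD libraries. Its groups did not overlap (log2 fold change 0.64 ± 0.16, adjusted p = 0.0680 in edgeR and 0.00703 in DESeq2).

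The structural glycoproteins Lamp1 and Lamp2 form most of the protein coat on the inner face of the lysosomal membrane. Lamp1 was at 1335, 1592, 830.7 and 1767 CPM in vehicle and 1732, 2387, 2264 and 2279 CPM in HPβCD replicates 1 to 4. HPβCD replicate 1 lay below vehicle replicate 4, and the log2 fold change was 0.65 ± 0.25 (adjusted p = 0.139). Lamp2 was at 896.6, 1325, 488.1 and 1335 CPM in vehicle and 1483, 1579, 1218 and 1730 CPM in HPβCD replicates 1 to 4. For both genes vehicle replicate 3 was the lowest library, and the value of Lamp2 was 0.57 ± 0.31 (adjusted p = 0.268). Without vehicle replicates 1 and 3 the 2 values were 0.38 ± 0.18 and 0.19 ± 0.18. Scarb2, which carries the enzyme glucocerebrosidase to the lysosome, ranged from 405.1 to 544.9 CPM and from 535.2 to 687.4 CPM (0.36 ± 0.16, and 0.23 ± 0.16 without the same libraries).

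Transporters gave a divided picture. Cln3, which is mutated in juvenile neuronal ceroid lipofuscinosis, was at 26.0, 22.0, 24.6 and 28.6 CPM in vehicle and 55.2, 49.8, 58.4 and 30.5 CPM in HPβCD replicates 1 to 4. HPβCD replicate 4 lay just above the vehicle libraries and the other 3 well above them (log2 fold change 0.94 ± 0.21, adjusted p = 0.0579 in edgeR and 0.00203 in DESeq2). Ctns, the cystine exporter, ranged from 25.8 to 37.4 CPM in vehicle and from 45.6 to 48.7 CPM in HPβCD libraries (0.66 ± 0.15, adjusted p = 0.0596 and 0.00459). The remaining transporters had smaller values. Slc17a5, the sialic acid exporter, had a log2 fold change of 0.30 ± 0.18, or 0.09 ± 0.14 without vehicle replicates 1 and 3. Slc38a9, an amino acid transporter that signals arginine to mTORC1, was at 34.7, 36.0, 30.8 and 37.8 CPM in vehicle and 38.4, 43.6, 35.2 and 41.9 CPM in HPβCD replicates 1 to 4 (0.19 ± 0.13, and 0.12 ± 0.14 without these libraries). Mfsd8, mutated in another form of ceroid lipofuscinosis, was at 22.7, 18.7, 14.5 and 20.3 CPM and at 16.6, 17.4, 16.4 and 16.4 CPM. The HPβCD libraries lay inside the vehicle range of Mfsd8 (-0.19 ± 0.16, adjusted p = 0.475).

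Of the LAPTM proteins, Laptm5 is known from immune cells. It ranged from 237.9 to 342.0 CPM in vehicle and from 388.9 to 649.2 CPM in HPβCD libraries, without overlap (log2 fold change 0.79 ± 0.20, adjusted p = 0.0673 in edgeR and 0.00565 in DESeq2). Laptm4a, which is broadly expressed, ranged from 394.2 to 682.7 CPM and from 722.9 to 785.0 CPM (0.42 ± 0.19, adjusted p = 0.184), also without overlap, and its value was 0.24 ± 0.14 without vehicle replicates 1 and 3.

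Levels were compared between genes per length of exon, with every annotated exon of a gene counted. The transcripts present may be shorter than this length, so the ranks are approximate. In CPM per kilobase, Lamp1 was the most abundant of the 35 transcripts in both groups, at a mean of 516.3 in vehicle and 809.5 in HPβCD infarcts. Atp6v0d2 ranked 4 in vehicle infarcts, at 179.6, and 2 in HPβCD infarcts, at 444.5. In HPβCD infarcts Laptm4a (423.3), Atp6ap2 (311.0) and Atp6v1g1 (190.9) followed, and Mfsd8 (1.77) and Atp6v1g2 (1.17) were the lowest. By this measure the called genes were of middle or low abundance, with HPβCD means of 45.9 for Clcn7, 27.8 for Tcirg1 and 18.0 for Tpcn1. In the V0 sector, Atp6v0d2 exceeded Atp6v0d1 (176.8), and Tcirg1 was below Atp6v0a1 (36.6), both as per-length means in HPβCD infarcts. Counts of some genes may include or miss reads of neighbors or copies. Exons on the opposite strand overlapped 11.8% of the exon length of Atp6v0b, 9.9% of that of Atp6v0a2, 9.3% of that of Lamp1 and 7.6% of that of Cln3. For Cln3 the overlapping gene was Apobr, whose transcripts hold 5.96% of the 75-base stretches of Cln3. Of the 75-base stretches of Atp6v1g1, 12.5% occur in transcripts of other genes.

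**Figure D5:**
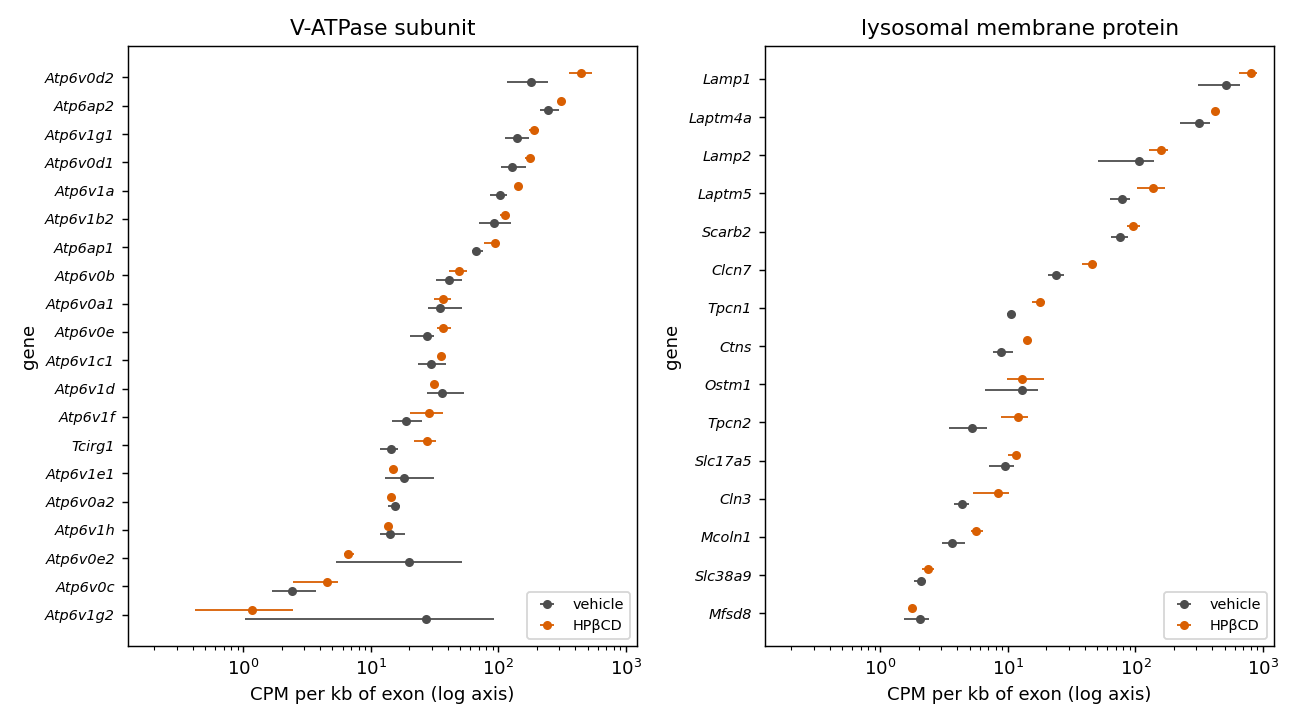
Mean CPM per kilobase of exon (log axis) of the V-ATPase genes (left) and lysosomal membrane protein genes (right), gray for vehicle and orange for HPβCD, with bars from the lowest to the highest of the 4 libraries. Lamp1 (809.5) and Atp6v0d2 (444.5) have the highest HPβCD means, and Atp6v1g2 has the widest vehicle range.

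The 8 genes with a CACGTG in at least 1 promoter, among them Cln3 by its second promoter only, had log2 fold changes from 0.26 to 0.94 with a median of 0.55, all 8 positive. The 20 genes whose promoters held none had a median of 0.36 and a range from -4.52 to 1.20, with 14 positive. Of their negative values, those of Atp6v1g2, Atp6v0e2, Atp6v1e1 and Atp6v1d turned positive without vehicle replicates 1 and 3 (0.04, 0.17, 0.16 and 0.17). Only Ostm1 and Mfsd8 stayed negative (-0.35 and -0.21). Clcn7 is in the first set and Tcirg1 in the second, while the promoters of Tpcn1 and Atp6v0d2 were not among those used. These shares are a description, with no test.

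Other genes of the compartment were examined from lists. Of 28 other lysosomal membrane proteins, 26 were tested, 22 had positive values with a median log2 fold change of 0.48, and 3 rose in edgeR (14 at an unadjusted p under 0.05, 12 called by DESeq2). These were Slc11a1, a metal ion transporter of phagocyte lysosomes (1.35 ± 0.19, adjusted p = 0.0389), Slc36a1, an amino acid exporter (0.81 ± 0.14, adjusted p = 0.0472), and Mfsd12, a cysteine importer (0.60 ± 0.12, adjusted p = 0.0499). The 2 members of that list with the highest mean CPM, a measure that also grows with transcript length, were Tmem106b and Cd63, which had values of 0.18 ± 0.25 and 0.67 ± 0.20. Of 15 other V-ATPase subunits and proteins that act on the pump, 11 were tested and had a median of 0.09. Among them 0 were called by edgeR (2 at an unadjusted p under 0.05) or DESeq2. The members of this list with the highest mean CPM, Oxr1 and Wdr7, had values of -0.63 ± 0.21 and 0.13 ± 0.18. The 15 genes of the nutrient signaling complex on the lysosome had a median of 0.04, and 0 were called by edgeR (6 at an unadjusted p under 0.05) and 5 by DESeq2. In that list Rragc and Fnip2 had the highest mean CPM, with log2 fold changes of 0.61 ± 0.14 and 0.87 ± 0.24.

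Markers of cell types in the infarct moved as well. Of 8 foamy macrophage markers, 7 had positive values (median log2 fold change 0.70), Gpnmb rose (1.38 ± 0.28, adjusted p = 0.0483), and the summed level was 6997 to 12450 CPM in vehicle and 15380 to 25230 CPM in HPβCD libraries, without overlap and with no marker at 0. Without Gpnmb the sums of the other 7 overlapped, at 4049 to 7269 and 6908 to 10620 CPM, and taken singly 2 of the 8 markers had all HPβCD libraries above all vehicle libraries. In the fit without vehicle replicates 1 and 3, Gpnmb had a log2 fold change of 1.11. Spp1 and Lpl were negative there (-0.34 and -0.64), and the other foamy macrophage markers were positive. Summed fibroblast markers also lay apart, at 2348 to 6025 and 8657 to 9270 CPM, with Col1a1 and Col1a2 called higher among 6. Their values in that fit were 1.36 and 1.21, and Lum alone of the fibroblast markers was negative (-0.06). B lymphocyte markers had a median of -1.92 with Cd79a and Cd79b called lower among 6, and plasma cell markers had a median of -0.82 with Jchain called lower among 6. Of the plasma cell markers, 5 had negative values and Sdc1 a positive one (0.41 ± 0.26). Xbp1 and Prdm1 had small negative values (-0.28 ± 0.18 and -0.17 ± 0.20). The medians were -0.23 for microglia and border macrophage markers, 0.04 for the 5 osteoclast-type genes tested of 7 (Ocstamp and Calcr were at 0 in some library), 0.21 for T lymphocyte, 0.53 for endothelium, -1.36 for astrocyte and -1.90 for oligodendrocyte markers. In each of these 7 lists edgeR called 0 genes, with 0 to 5 at an unadjusted p under 0.05 and 1 to 4 called by DESeq2. The part of these cell types in the values of the 35 genes was not tested.

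The 3 calls sat close to the threshold. Clcn7, Tpcn1 and Tcirg1 were each called in 8 of 16 other analyses, among them DESeq2 (adjusted p = 1.62e-05, 9.96e-06 and 0.000178). None of the 3 was called when vehicle replicate 1, vehicle replicate 4 or HPβCD replicate 1, 2 or 3 was left out. Over all genes tested, the same fits called 0, 0, 4, 0 and 0 genes, in that order, so the loss was not particular to these 3. Without vehicle replicates 1 and 3 together, the log2 fold changes were 0.81, 0.71 and 0.78 with adjusted p of 0.0502, 0.0521 and 0.0632. Their log2 fold changes over the 16 analyses ranged from 0.81 to 1.03, from 0.69 to 0.85 and from 0.78 to 1.05.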

How the data were processed

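Messenger RNA of 8 infarcts (4 vehicle, 4 HPβCD) was measured by bulk RNA-Seq. The authors prepared stranded libraries from polyadenylated RNA, trimmed reads (Trimmomatic 0.32), aligned them to GRCm38 (STAR 2.5.2b) and counted them with HTSeq. The annotation release and strand option are not given in the sources used here. The deposited files hold raw counts, not normalized, in 1 table of genes per library. Lines for unassigned reads (26.6% to 36.6% of a library, of which multiply aligned reads made up 18.6% to 23.6% of a library) stayed out of totals and tests, so genes with close copies are undercounted.

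Ensembl identifiers matched a symbol for 45143 of 46078 genes and for all 35 members. Counts were tested across all genes that passed filterByExpr (14736) by edgeR's quasi-likelihood F test with robust fitting (edgeR 4.0.16, R 4.3.3), with TMM factors and Benjamini-Hochberg adjustment, and a gene is called at an adjusted p under 0.05. DESeq2 1.42.0, which the study used, and limma 3.58.1 served as alternatives, with other scalings, filters and left-out libraries. The procedure was tested on simulated data. CPM are counts per M of the library total times its TMM factor. Isoform ratios used 0.5 added counts. Union exon lengths and coordinates are from GENCODE M21, promoters from RefSeq GRCm38.p6. The labels name each library a replicate and give no batch, so p-values measure the spread between these samples.

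The 35 members and all 15 gene lists were chosen with earlier results of these data known. Values per library are given for called genes, the 3 highest and 3 lowest fold changes of each class, members of the isoform ratios, Lamp1 and Lamp2. From other lists, called genes and the 2 with the highest mean CPM are named, with a few markers chosen after their values were seen.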

Additional observations from a re-analysis of the deposited data

Results flagged for a closer look

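Within the groups of 4, some libraries lay far from the other 3 for 1 gene. Atp6v1e1 was at 128.7 CPM in vehicle replicate 3, where the nearest library had 58.9 CPM. Atp6ap1 was at 233.1 CPM in HPβCD replicate 4, against 297.9 CPM in the nearest. Lamp1 was at 1732 CPM and Slc17a5 at 36.4 CPM in HPβCD replicate 1, below the nearest values of 2264 and 43.9 CPM. These were 4 of 78 groups searched (35 genes and 4 isoform ratios in each treatment), and chance gives about 3.9.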

How the results depend on the processing

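Over 16 alternatives, 28 of the 35 genes kept the sign of their log2 fold change and 7 did not. The 3 called genes became 14 with DESeq2 (7 V-ATPase, 7 membrane proteins), 16 with limma-voom (9 and 7), 5 without a filter on low counts (2 V-ATPase), and 0 with scaling by library totals alone (16 at an unadjusted p under 0.05), with the replicate block (18) and without vehicle replicates 1 and 3 (18), so 0 in either class. Over all genes, 287 calls became 2899 with DESeq2, 3232 with limma-voom and 11 with library totals. Leaving out 1 library gave 0 to 7 genes called of the 35, 0 to 3 of the V-ATPase, 0 to 4 membrane proteins and 0 to 629 of all genes. The 35 held 6 calls without vehicle replicate 2, 7 without vehicle replicate 3, and 0 without vehicle replicate 1 or 4 or HPβCD replicate 1, 2 or 3 (12 to 20 at an unadjusted p under 0.05). Over all genes, 556 were called without vehicle replicate 2 and 629 without vehicle replicate 3. Without vehicle replicate 1 or 4, or HPβCD replicate 1, 2 or 3, the calls over all genes were 0, 0, 4, 0 and 0. The cause was not tested. The labels do not say whether replicate numbers pair the samples. Correlations of same-numbered deviations were -0.257, 0.244, 0.329 and 0.0975. With no correlations of differently numbered libraries set beside them, they cannot decide it. The fit with the replicate block called 9 genes over all. The median log2 fold change of the membrane proteins was 0.42 with limma-voom and 0.38 without vehicle replicates 1 and 3 (0.47 to 0.73 with 1 library left out), and that of the V-ATPase was 0.28 to 0.39 with 1 library left out. With 1 library left out, the ratio differences were 0.55 to 1.00 for Tcirg1 to Atp6v0a1, 0.64 to 1.10 for Atp6v0d2 to Atp6v0d1, -1.91 to -0.61 for Atp6v0e2 to Atp6v0e and -4.22 to -1.86 for Atp6v1g2 to Atp6v1g1, and without vehicle replicates 1 and 3 the 4 were 0.40, 0.29, -0.09 and -0.48. The sign changed for Atp6v0a1 with library totals (0.00, and -0.02 to 0.31 with 1 library left out), for Atp6v1d, Atp6v1e1 and Atp6v1h with limma-voom (0.04, 0.09 and 0.13) and without vehicle replicates 1 and 3 (0.17, 0.16 and 0.10), for Atp6v0e2 and Atp6v1g2 without these libraries (0.17 and 0.04), and for Ostm1 without a filter (0.00) and with the replicate block (0.01). With 1 library left out, Atp6v1d ranged from -0.32 to 0.04, Atp6v1e1 from -0.40 to 0.13, Atp6v1h from -0.11 to 0.13 and Ostm1 from -0.28 to 0.14. Depth made little difference: with all libraries thinned to the smallest, 3 of the 35 genes and 322 over all were called.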
